A study of Mus musculus with 6 samples.

Results

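The genes described here encode the subunits of the mitochondrial respiratory chain and ATP synthase, measured on one-colour Agilent arrays in mouse pluripotent cells. They were chosen by name alone, as genes whose symbol begins with Ndufa, Ndufb, Ndufc, Ndufs or Ndufv and a number, is Sdha, Sdhb, Sdhc or Sdhd, or begins with Uqcr, Cox4 to Cox8, or Atp5. The RefSeq gene table holds 87 protein-coding genes with such names. Of these, 82 were measured, among 16151 genes tested, and the other 5 (Ndufa11, Ndufa4l2, Ndufb1, Ndufb4b and Ndufb4c) were named only. By name, 35 fell to complex I, 4 to complex II, 8 to complex III, 18 to complex IV and 17 to ATP synthase (complex V). All are subunits except Cox7a2l, which joins complexes into supercomplexes, and Ndufa4, named for complex I, is now counted as a subunit of complex IV.

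The 6 samples were E3.5 and E5.5 epiblast stem cells (EpiSCs), named for the embryonic day of the embryo, and mouse embryonic stem (mES) cells, whose label also gives E3.5, each with and without SB431542. All came from strain 129 and grew in Knockout DMEM with 20% KSR, a serum replacement. Treated cells received 20 uM SB431542, an inhibitor of the Activin, Nodal and TGF-beta type I receptors, daily for 4 days. Each of the 6 groups had 1 array, and no label states that the arrays were made from independent cultures. The p-values therefore describe how far these arrays spread, which can be technical. The 2 EpiSC lines served as the replicates of their class, so a difference between EpiSCs and mES cells rests on 2 EpiSC lines and 1 mES line.

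The respiratory chain passes electrons from NADH, through complex I, or from succinate, through complex II, to ubiquinone, complex III, cytochrome c and complex IV, which reduces oxygen. Complexes I, III and IV pump protons, and ATP synthase uses the gradient to make ATP. Complex IV (cytochrome c oxidase) is the part of the chain in which several nuclear subunits exist as ubiquitous and tissue-restricted copies, with forms of heart and skeletal muscle and of testis. Naive mES cells are known to use both respiration and glycolysis, whereas primed EpiSCs rely largely on glycolysis.

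Every array held 43379 gene spots, 0 of them saturated, and between 82.6% and 85.7% of its spots were well above background. Levels are given on a log2 scale, as the processed signal relative to the 75th percentile of its array, so 0 is that percentile, and levels of different probes cannot be ranked against each other. As a check of the labels, Pou5f1, a core pluripotency factor, lay between 5.58 and 5.88 on the 3 untreated arrays, and of 8 naive markers 2 were called lower in EpiSCs and 0 higher. SB431542 left Pou5f1 at -5.40 and -4.38 on the treated E3.5 and E5.5 EpiSC arrays and at 5.34 on the treated mES array. Nanog, also a core factor, was at -5.11 and -3.84 on the same EpiSC arrays and at 2.81 on the treated mES array. Sox2, the other core factor listed, went the other way, at 2.77 and 2.79 in treated and 2.10 and 2.47 in untreated EpiSCs. It did not pass the test (fitted 0.49 ± 0.28 SE, limma adjusted p = 0.38). Of 8 neuroectoderm markers, 5 were called higher in treated than in untreated EpiSCs; the part of this change in the values of the respiratory chain was not tested. Slide 1 held the E5.5 EpiSC and mES arrays, treated and untreated, slide 2 the treated E3.5 EpiSC array and slide 3 the untreated one. The E3.5 line and its slides cannot be told apart, nor, within that line, can treatment and slide.

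Most of these genes gave bright signals in every condition. On the treated E5.5 EpiSC array 76 of the 82, and on each other array 77, lay above the 75th percentile, against 40.2% to 41.1% of all genes tested. All 6 arrays were well above background for 80 of the 82, and the exceptions were Cox8c and Cox7b2. Of the 15 members with several probes, Ndufa12 had a probe of opposite sign for SB431542 in EpiSCs, as did Atp5h and Ndufv3 for EpiSCs against mES cells.

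The clearest difference lay in complex IV, where the testis forms Cox8c and Cox7b2 fell in EpiSCs relative to mES cells while their ubiquitous counterparts did not pass the test. Cox8c, the testis form of the small subunit 8, was at -8.94 and -8.81 on the treated E3.5 and E5.5 EpiSC arrays and at -8.64 and -8.55 on the untreated ones, against -1.36 on the treated and -1.38 on the untreated mES array. It was well above background on the 2 mES arrays only, so no level can be given for any EpiSC array. For bounds, each EpiSC array was set at its lowest signal well above background. Cox8c was then at least 31.3-fold lower in untreated EpiSCs than in untreated mES cells, and among treated cells at least 39.3-fold lower. The bounds were not tested. The limma adjusted p of 0.0122 belongs to the fitted difference of -7.22 ± 0.31 (SE), which uses EpiSC signals that were not well above background. In these bulk RNA samples fewer cells of a kind and less RNA per cell cannot be told apart.

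Cox7b2, the testis form of subunit 7b, was at -7.70 and -7.19 in treated and -5.76 and -6.44 in untreated E3.5 and E5.5 EpiSCs, against -1.15 in treated and -1.32 in untreated mES cells. The groups did not overlap, and of the 4 EpiSC arrays the gene was well above background on the untreated E3.5 array alone. Its fitted difference between untreated EpiSCs and mES cells was -4.78 ± 0.46 (SE, limma adjusted p = 0.0287), which includes the E5.5 EpiSC signal that was not well above background, and among treated cells it was at least 45.5-fold lower in EpiSCs. Within slide 1, with the untreated E5.5 EpiSC array set at its lowest signal well above background, Cox8c was at least 30.7-fold and Cox7b2 at least 32.0-fold lower there than on the untreated mES array. These 2 genes were the members called in this comparison, both lower, against 1.11% of all genes called lower and 0.39% called higher. The share of higher calls among all calls was 26.0% here and 39.7% with normexp background correction, where the median of all genes was 0.14 in place of -0.06. Over the 12 alternatives that tested them, the adjusted p lay between 0.0194 and 0.0856 for Cox7b2 and between 0.0061 and 0.0801 for Cox8c. Both calls were lost when either treated EpiSC array was left out, when 0 of all genes passed, and with normexp background correction.

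The ubiquitous partners did not pass the test. Cox8a was at 5.33 and 5.63 in treated and 5.96 and 5.84 in untreated EpiSCs, against 6.30 in treated and 6.08 in untreated mES cells. Cox7b was at 4.85 and 5.51 in treated and 5.73 and 5.89 in untreated EpiSCs, against 6.35 and 6.11 in treated and untreated mES cells. The fitted differences between untreated EpiSCs and mES cells were -0.19 ± 0.33 for Cox8a and -0.30 ± 0.41 for Cox7b (SE, limma adjusted p = 0.87 and 0.82). Both were lowest in the treated EpiSCs and highest in the treated mES cells.

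**Figure D1:**
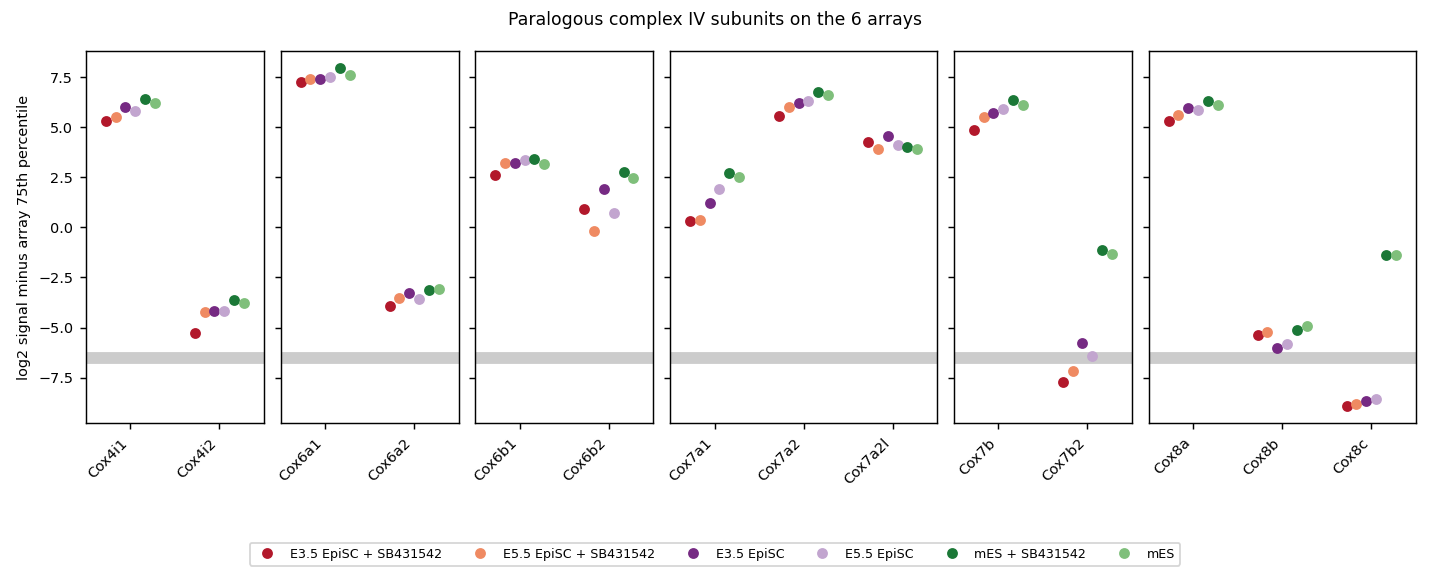
Log2 signal minus the array's 75th percentile (vertical axis) of paralogous complex IV genes, 1 point for each array, with the range over arrays of the lowest signal well above background in grey. Cox8c and Cox7b2 lie between -1.38 and -1.15 on the mES arrays and in or under the grey band on EpiSC arrays except Cox7b2 on the untreated E3.5 array at -5.76; levels are to be compared within a gene only.

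The third testis form, Cox6b2, and the muscle form Cox7a1 lay lower in EpiSCs without passing the test. Cox6b2 was at 0.89 and -0.18 in treated and 1.91 and 0.73 in untreated E3.5 and E5.5 EpiSCs, against 2.74 in treated and 2.47 in untreated mES cells. All 4 EpiSC arrays were below both mES arrays, and the 2 EpiSC lines differed from each other. The fitted difference was -1.15 ± 0.71 for untreated EpiSCs minus mES cells (SE, limma adjusted p = 0.54) and -1.13 ± 0.41 for E5.5 minus E3.5 EpiSCs (adjusted p = 0.63). Cox7a1 was at 0.30 and 0.36 in treated and 1.22 and 1.93 in untreated EpiSCs, against 2.69 in treated and 2.49 in untreated mES cells. These 3 levels, treated EpiSC, untreated EpiSC and mES, did not overlap, yet the fitted differences were -0.91 ± 0.42 between untreated EpiSCs and mES cells (adjusted p = 0.39) and -1.25 ± 0.34 for SB431542 in EpiSCs (adjusted p = 0.16). Leaving out 1 untreated EpiSC array moved the EpiSC minus mES value of Cox6b2 to -1.74 (without E3.5) or -0.56 (without E5.5), and that of Cox7a1 to -0.56 (without E3.5) or -1.27 (without E5.5). Among the 33 members named in that comparison, 14 moved by over 1.5 times in this way.

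The other muscle forms were dim in every condition. Cox6a2, the heart and muscle form of subunit 6a, ran from -3.92 to -3.08 over the 6 arrays and Cox4i2, a form known from lung and from hypoxic cells, from -5.26 to -3.61. Cox8b, the muscle form of subunit 8 in mouse, was at -5.35 and -5.24 in treated and -6.02 and -5.80 in untreated EpiSCs, against -5.11 and -4.90 in treated and untreated mES cells. It was the 1 complex IV gene above its untreated level in both treated EpiSC lines (log2 ratios of 0.66 and 0.56), without passing the test (fitted 0.61 ± 0.26 SE, limma adjusted p = 0.29), and under normexp background correction the fitted value turned to -0.43. Cox4i1, the ubiquitous partner of Cox4i2, had a fitted difference of -0.34 ± 0.33 between untreated EpiSCs and mES cells, and Cox6a1, that of Cox6a2, one of -0.12 ± 0.31. Cox6b1, that of Cox6b2, had a fitted difference of 0.14 ± 0.40 and Cox7a2, that of Cox7a1, one of -0.33 ± 0.36 (SE, adjusted p between 0.72 and 0.92 for these 4).

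Genes of the male germ line differed between the same arrays. Of 10 male germ cell markers measured, 8 were called lower in EpiSCs and 0 higher, among them the synaptonemal complex genes Sycp1 and Sycp3 and the meiotic entry gene Stra8. The log2 of their summed level was between 1.95 and 2.35 on the 4 EpiSC arrays and between 5.06 and 5.64 on the 2 mES arrays, with 4 to 6 and 9 of the 10 well above background. Pgk2, a late spermatogenic gene, was well above background on 1 of the 6 arrays. Cyct, the testis cytochrome c, which the naming rule leaves out, was at -5.33 and -5.08 in treated and -4.49 and -4.87 in untreated EpiSCs, against 4.15 and 4.28 in treated and untreated mES cells. It fell by 8.96 on the log2 scale (fitted -8.96 ± 0.36 SE, limma adjusted p = 0.0122), while Cycs, the somatic cytochrome c, had a fitted difference of 0.42 ± 0.42 (adjusted p = 0.74). The part of this germ line group in the calls of Cox8c and Cox7b2 was not tested. Of 11 heart and skeletal muscle markers, 0 were called in either direction, and the log2 of their summed level was 1.67 to 3.19 on EpiSC and 1.79 to 1.96 on mES arrays. Of 12 fibroblast markers 0 were called, with a log2 summed level of 7.08 to 7.74 on EpiSC and 6.06 to 6.28 on mES arrays. That sum hides differences between the EpiSC arrays. The median log2 ratio of these 12 with SB431542 was 1.33 in the E3.5 and -1.07 in the E5.5 EpiSC pair. Over untreated mES cells it was -0.10 in untreated E3.5 and 1.92 in untreated E5.5 EpiSCs. The part of this in the respiratory chain values was not tested.

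Promoters are shown for 2 pairs of a testis and a ubiquitous form, from RefSeq (GRCm38.p6): the pair in which the testis form was called (Cox7b2, Cox7b) and one in which it was not (Cox6b2, Cox6b1). Each run is the 250 bases before the annotated start, read 5' to 3' on the strand of the gene, with every CG dinucleotide in capitals. Cox7b2 lies on the minus strand at chr5:71548206-71548455, Cox7b on the plus strand at chrX:106015450-106015699, and Cox6b2 and Cox6b1 on the minus strand at chr7:4753095-4753344 and chr7:30626115-30626364.
Cox7b2: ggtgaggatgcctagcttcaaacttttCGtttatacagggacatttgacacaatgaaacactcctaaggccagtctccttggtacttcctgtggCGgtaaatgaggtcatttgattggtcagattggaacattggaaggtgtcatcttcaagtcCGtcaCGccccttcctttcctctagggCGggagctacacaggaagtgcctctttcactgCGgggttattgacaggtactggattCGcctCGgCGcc
Cox7b: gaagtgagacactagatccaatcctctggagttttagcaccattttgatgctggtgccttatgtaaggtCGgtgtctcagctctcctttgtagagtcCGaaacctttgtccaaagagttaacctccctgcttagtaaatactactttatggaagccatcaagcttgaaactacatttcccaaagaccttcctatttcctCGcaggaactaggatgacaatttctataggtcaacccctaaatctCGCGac
Cox6b2: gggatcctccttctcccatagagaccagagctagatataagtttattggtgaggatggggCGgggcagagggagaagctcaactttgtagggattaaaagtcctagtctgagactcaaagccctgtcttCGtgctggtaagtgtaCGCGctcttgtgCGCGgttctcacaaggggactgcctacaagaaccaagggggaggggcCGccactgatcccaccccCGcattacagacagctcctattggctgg
Cox6b1: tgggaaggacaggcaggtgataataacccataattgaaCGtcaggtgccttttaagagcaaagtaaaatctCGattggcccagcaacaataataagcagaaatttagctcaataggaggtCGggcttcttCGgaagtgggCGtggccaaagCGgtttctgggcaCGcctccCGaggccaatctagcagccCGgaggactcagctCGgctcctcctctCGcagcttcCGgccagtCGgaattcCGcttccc
These runs hold 9 CG dinucleotides for Cox7b2 and 5 for Cox7b, 8 for Cox6b2 and 14 for Cox6b1. The testis form held more in one pair and fewer in the other. The full windows of 300 bases, from 250 before to 50 after the start, held a median of 19 CG over the 67 members with a window, against 8 over 27025 genes. These 27025 are all genes with a window and were not limited to the genes tested on the arrays. For a gene with several windows the highest count was taken. Cox8c was not among the members with a window.

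Motifs of factors known to act on respiratory chain genes were searched in the same windows on both strands. The NRF1 motif, GCGCA, any base and GCGC, was in 16 of the 67 members with a window (23.9%), against 5.19% of the 27025 genes with a window, a set not limited to the genes tested. The ETS motif bound by GABPA, CCGGAAG, was in 17 (25.4% against 9.93%), the YY1 motif AAGATGGCG in 7 (10.4% against 1.64%) and the ERR motif TCAAGGTCA in 2 (2.99% against 0.466%). Letters of the ETS and YY1 motifs can overlap, which happened in 0 member windows. Of the 4 promoters printed above, Cox7b2, Cox7b and Cox6b2 held none of these letters and Cox6b1 held 1 ETS match. Of all 67, 33 held none. Cox6a1, the ubiquitous subunit 6a form, serves as an example with matches to both NRF1 and ETS, and its 250 bases before the start (minus strand, chr5:115348959-115349208) are given with 2 NRF1 matches and 1 ETS match in capitals.
Cox6a1: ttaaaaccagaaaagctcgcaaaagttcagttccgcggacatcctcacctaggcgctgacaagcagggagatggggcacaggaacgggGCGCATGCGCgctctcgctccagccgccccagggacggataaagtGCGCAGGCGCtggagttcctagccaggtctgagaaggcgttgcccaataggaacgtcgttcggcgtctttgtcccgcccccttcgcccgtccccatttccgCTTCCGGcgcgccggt
The first NRF1 match begins at base 89 of this run and the ETS match, read on the other strand, at base 235. Matches describe the sequence only.

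Across the whole chain, 80 of the 82 genes did not pass the test between untreated EpiSCs and untreated mES cells. With 1 mES array and a median SE of 0.36, this does not show equal levels. The median fitted difference over the 82 genes was -0.13 on the log2 scale, against -0.06 over all genes tested. Below 0 were 55 of the 82 (67.1%), against 53.8% of all genes. In complex I the median was -0.01, with 18 of 35 below 0, in complex II -0.30, in complex III -0.07, in complex IV -0.34 and in ATP synthase -0.13. Outside complex IV no member passed the test. Both untreated EpiSC arrays lay below the untreated mES array for 48 of the 82 genes (58.5%) and above it for 17 (20.7%). Over all genes these shares were 44.3% and 35.5%. Counting the treated arrays as well, all 4 EpiSC arrays lay below both mES arrays for 48 of the 82 and above for 0. Over all genes 31.2% lay below and 19.1% above in that count, which treatment can enter.

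In complex I, Ndufs1, the largest core subunit, was at 3.55 and 3.58 in treated and 3.83 and 3.77 in untreated EpiSCs, against 4.37 in treated and 4.43 in untreated mES cells (fitted -0.64 ± 0.31 SE for untreated EpiSC minus mES, limma adjusted p = 0.43). Ndufa8, an accessory subunit, was on the other side, at 4.34 and 4.04 in untreated E3.5 and E5.5 EpiSCs and 3.65 in untreated mES cells (0.53 ± 0.34, adjusted p = 0.55). Sdha, the flavoprotein of succinate dehydrogenase, was the lowest of complex II, at 1.73 and 1.55 in untreated EpiSCs and 2.36 in untreated mES cells (-0.72 ± 0.32, adjusted p = 0.38). Both untreated EpiSC lines lay on the same side of the untreated mES array for these 3 genes, while for Ndufa8 the treated EpiSC arrays, at 3.58 and 3.73, overlapped the mES arrays.

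In complex III, Uqcr10, a small accessory subunit, had the lowest fitted value (-0.57 ± 0.44 SE, limma adjusted p = 0.64), and the core subunit Uqcrc1 followed at -0.37 ± 0.36. In complex IV, Cox6c, a ubiquitous subunit, was at 6.06 and 6.34 in untreated EpiSCs and 6.92 in untreated mES cells (-0.72 ± 0.39, adjusted p = 0.48). Cox7a2l, the supercomplex factor, was highest of the complex IV group, at 4.57 and 4.09 in untreated EpiSCs and 3.90 in untreated mES cells (0.43 ± 0.39, adjusted p = 0.70). In ATP synthase, the c-ring gene Atp5g1 was at 4.00 and 4.10 in untreated EpiSCs and 4.67 in untreated mES cells (-0.62 ± 0.41, adjusted p = 0.57), while Atp5g2 and Atp5g3, which encode the same mature c subunit, had fitted values of -0.19 and -0.12. Atp5mpl, a small accessory protein, was at 5.57 in both untreated EpiSC lines and 4.79 in untreated mES cells (0.78 ± 0.37, adjusted p = 0.41), the highest of all 82.

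By single pairs of untreated arrays, 4 members were at least 2-fold lower in E3.5 EpiSCs than in mES cells (Cox8c, Cox7b2, Cox7a1 and Cox8b) and 3 in E5.5 EpiSCs (Cox8c, Cox7b2 and Cox6b2). None was 2-fold higher in either. Over all genes, 12.4% were 2-fold lower and 10.8% higher in E3.5 EpiSCs, and 10.5% lower and 11.7% higher in E5.5 EpiSCs. Each member past that size belonged to complex IV. Both pairs share the untreated mES array.

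**Figure D2:**
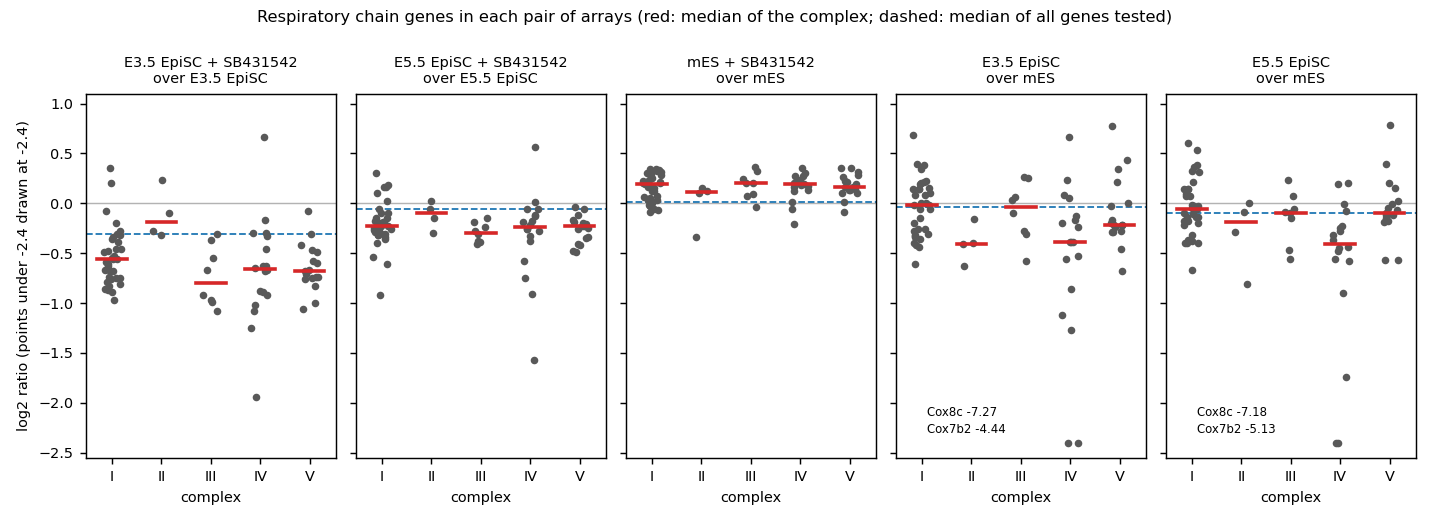
Log2 ratio of each of the 82 genes (vertical axis) by complex in 5 pairs of arrays, with the median of the complex in red and that of all genes tested dashed. The medians of all 82 were -0.63, -0.23 and 0.19 in the treated E3.5 EpiSC, E5.5 EpiSC and mES pairs, and Cox8c and Cox7b2 in the EpiSC over mES pairs are drawn at the lower edge. Their printed ratios use EpiSC signals that, except for Cox7b2 on the untreated E3.5 array, were not well above background.

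SB431542 was followed by lower signals of most respiratory chain genes in both EpiSC lines and by slightly higher ones in mES cells, and no member passed the test. The median log2 ratio of treated over untreated was -0.63 in E3.5 EpiSCs, -0.23 in E5.5 EpiSCs and 0.19 in mES cells, against -0.31, -0.06 and 0.02 over all genes tested. Both treated EpiSC arrays were below both untreated ones for 61 of the 82 genes and above for 2, against 36.6% and 20.5% of all genes. In mES cells 72 of 82 (87.8%) were higher on the treated array, against 53.3% of all genes. Of the 82, 66 (80.5%) were higher there and lower in both EpiSC lines, against 24.4% of all genes.

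This pattern depended on how the arrays were scaled. After quantile normalization, which gives every array one distribution of signals, the medians of the 82 were -0.16, -0.06 and 0.10 in the E3.5, E5.5 and mES pairs, against -0.17, -0.03 and 0.00 over all genes. Then 28 of the 82 genes (34.1%) lay below in both treated EpiSC arrays, against 32.8% of all genes, and 37 (45.1%) were higher in the mES pair and lower in both EpiSC pairs, against 20.4%. With normexp background correction the medians of the 82 were -0.54, -0.14 and 0.17, and in the E5.5 pair that of all genes was lower still, at -0.26. Under quantile normalization the members of treated EpiSCs were thus close to all genes, while in the mES pair their median lay above that of all genes under each of the 4 scalings tried. The array 75th percentile that was subtracted was an intensity of 1803 for treated and 1194 for untreated E3.5 EpiSCs, 1462 and 1229 for treated and untreated E5.5 EpiSCs, and 1283 and 1388 for treated and untreated mES cells.

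**Figure D3:**
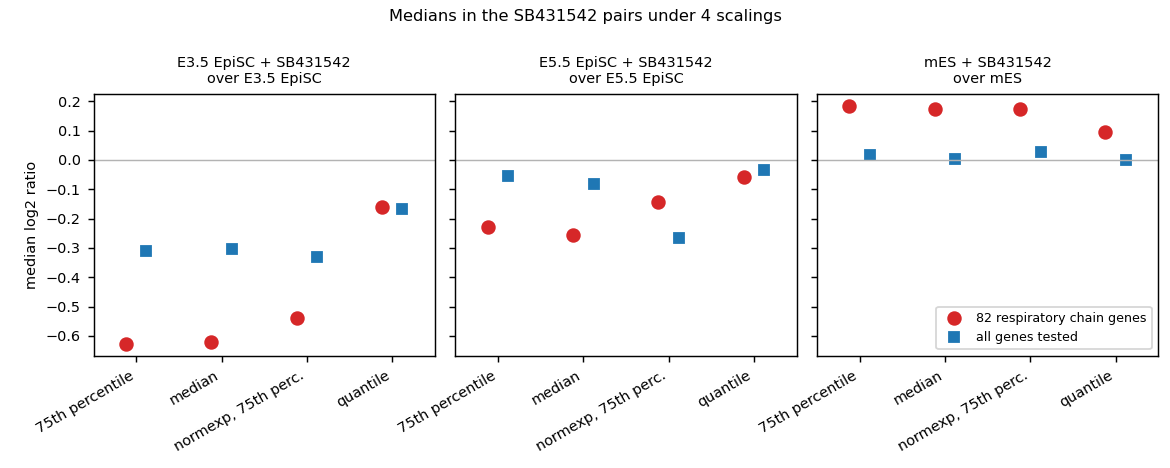
Median log2 ratio of treated over untreated (vertical axis) of the 82 respiratory chain genes (circles) and of all genes tested (squares) in the 3 SB431542 pairs under 4 scalings of the arrays. In the E3.5 pair the circle lies at -0.63 and the square at -0.31 after subtraction of the 75th percentile, and at -0.16 and -0.17 after quantile normalization.

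In the fit over both EpiSC lines, 0 of the 82 members were called with SB431542, against 0.892% of all genes called higher and 1.2% lower. The median fitted value of the members was -0.41, with a median SE of 0.29, and that of all genes was -0.19. At an unadjusted p of 0.05, 4 members were lower (Cox7a1, Cox7b2, Cox7c and Ndufs8) and 0 higher, against 1868 lower and 1334 higher of the 16151 genes, and the lowest adjusted p was 0.16. With the cell line as a block, which pairs each treated with its untreated array, 5.59% of all genes (903) were called in either direction, and again 0 members, with a lowest adjusted p of 0.11 (Cox7a1). Leaving out 1 EpiSC array moved the fitted SB431542 value by over 1.5 times for 23 of the 33 members named in this comparison. The value of Cox6b2 ran from -1.55 without the untreated E5.5 array to -0.37 without the untreated E3.5 array. That of Ndufv3 ran from -1.16 without the treated E3.5 array to -0.29 without the treated E5.5 array, and that of Atp5g1 from -1.11 without the treated E5.5 array to -0.44 without the treated E3.5 array.

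By complex, the median fitted value was -0.37 in complex I, -0.15 in complex II, -0.51 in complex III, -0.44 in complex IV and -0.47 in ATP synthase. Complex II, whose 4 subunits also form the succinate dehydrogenase of the tricarboxylic acid cycle, was thus the nearest to the median of all genes. Sdha was at 1.63 and 1.49 in treated and 1.73 and 1.55 in untreated E3.5 and E5.5 EpiSCs. Sdhc, a membrane anchor, had log2 ratios of treated over untreated of 0.24 in the E3.5 and 0.02 in the E5.5 EpiSC pair. For both genes the treated and untreated groups overlapped, and the fitted values were -0.08 ± 0.26 and 0.13 ± 0.27 (SE, limma adjusted p = 0.879 and 0.805).

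In the E3.5 pair alone the medians were -0.56, -0.19, -0.80, -0.66 and -0.68 in complexes I to V, and in the E5.5 pair -0.23, -0.10, -0.29, -0.24 and -0.22. Each was below 0, and within each pair complex II was the nearest to 0 and complex III the farthest.

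In treated mES cells the log2 ratios of the 82 genes ran from -0.34 for Sdha to 0.36 for Uqcrb, with medians of 0.19, 0.11, 0.20, 0.20 and 0.16 in complexes I to V. Sdha was at 2.02 on the treated and 2.36 on the untreated mES array, and the other 3 genes of complex II were higher on the treated one. Atp5mpl (0.36), Atp5j2 (0.35), Cox6a1 (0.35), Ndufb4 (0.35) and Ndufs5 (0.35) followed Uqcrb at the upper end. With 1 array on each side these ratios have no test of their own.

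In complex I, Ndufs8, an iron-sulfur subunit, was at 1.61 and 1.80 in treated and 2.48 and 2.41 in untreated EpiSCs (fitted -0.74 ± 0.26 SE, limma adjusted p = 0.23). The groups did not overlap, and in mES cells the same gene was at 2.43 treated and 2.27 untreated. Ndufv3, a subunit of the NADH-binding arm, was at 3.19 and 2.32 in treated and 3.72 and 3.24 in untreated EpiSCs (-0.73 ± 0.41, adjusted p = 0.38). Ndufv1, which binds NADH and FMN, was at 3.99 and 4.52 in treated and 4.96 and 4.88 in untreated EpiSCs, against 5.25 and 5.28 in treated and untreated mES cells (-0.66 ± 0.31, adjusted p = 0.31). On the other side of 0, Ndufb5 was at 1.78 and 1.40 in treated and 1.43 and 1.24 in untreated EpiSCs (0.26 ± 0.29, adjusted p = 0.63), and Ndufa3 had log2 ratios of 0.21 and 0.30 in the E3.5 and E5.5 EpiSC pairs (0.25 ± 0.25, adjusted p = 0.60). Ndufa3 and Cox8b were the 2 members with both treated EpiSC arrays above both untreated ones. Both are accessory subunits. Ndufb5 and Ndufa3 were also higher on the treated mES array, with log2 ratios of 0.29 and 0.28.

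In complex III all 8 genes were lower in both EpiSC pairs, against 46.7% of all genes. Uqcrb, the ubiquinone-binding protein, was at 4.36 and 4.87 in treated and 5.44 and 5.26 in untreated EpiSCs (fitted -0.73 ± 0.31 SE, limma adjusted p = 0.28), and was higher on the treated than on the untreated mES array, at 5.55 and 5.18. Uqcrc1 and Uqcrq had fitted values of -0.69 each. Uqcrfs1, the Rieske iron-sulfur protein, was least moved, at 4.45 and 4.42 in treated and 4.76 and 4.61 in untreated EpiSCs (-0.25 ± 0.26, adjusted p = 0.60). Under quantile normalization its fitted value turned to 0.031 and that of Uqcrh to 0.15. The share of the 82 members lower in both EpiSC pairs was then 54.9%, against 43.0% of all genes.

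In complex IV, Cox7c, a small ubiquitous subunit, was at 4.74 and 5.05 in treated and 6.00 and 5.62 in untreated EpiSCs (fitted -0.91 ± 0.30 SE, limma adjusted p = 0.20). Its level on the mES arrays was 6.14 treated and 5.94 untreated, near that of the untreated EpiSC arrays. Cox6b2 had a fitted value of -0.96 ± 0.58 (adjusted p = 0.41). No fold is given for Cox7b2, which was well above background on 1 of the 4 EpiSC arrays. Cox6a1 was at 7.25 and 7.38 in treated and 7.42 and 7.50 in untreated EpiSCs, a fitted value of -0.14 ± 0.26 (adjusted p = 0.765), and under quantile normalization it turned to 0.31.

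In ATP synthase all 17 genes had a fitted value below 0, against 62.0% of all genes. Atp5g1 was at 2.94 and 3.61 in treated and 4.00 and 4.10 in untreated EpiSCs (fitted -0.77 ± 0.34 SE, limma adjusted p = 0.29), and Atp5d, the delta subunit of the central stalk, at 3.72 and 4.19 in treated and 4.72 and 4.52 in untreated EpiSCs (-0.67 ± 0.30, adjusted p = 0.30). The treated arrays lay below the untreated ones for both genes. The catalytic subunit Atp5b was at 7.08 and 7.37 in treated and 7.76 and 7.79 in untreated EpiSCs, against 7.98 and 7.97 in treated and untreated mES cells. Atp5h, a stalk subunit, was at 5.88 and 6.20 in treated and 5.95 and 6.26 in untreated EpiSCs (-0.07 ± 0.29, adjusted p = 0.91), and under quantile normalization its fitted value turned to 0.37. Under that scaling Atp5g3 and Atp5j also turned, to 0.10 each. Of all 82 members 68.3% were then below 0, against 57.5% of all genes.

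By the 2-fold rule, 6 members were lower and 0 higher with SB431542 in E3.5 EpiSCs, 1 lower and 0 higher in E5.5 EpiSCs, and 0 in either direction in mES cells. Over all genes, 19.6% were lower and 11.4% higher in the E3.5 pair, 8.77% lower and 6.46% higher in the E5.5 pair, and 1.13% lower and 1.41% higher in the mES pair. The 6 genes of the E3.5 pair, 4 from complex IV, were Cox7b2, Cox7c, Cox4i2, Cox6b2, Uqcrb and Atp5g1, and the 1 of the E5.5 pair was Cox7a1, at 0.36 treated and 1.93 untreated. Cox7b2 was not well above background on the treated E3.5 array, and its place among the 6 rests on that signal. No gene passed this rule in both lines. The 2 arrays of the E3.5 pair lay on different slides and those of the E5.5 pair on the same one.

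The response to SB431542 was set against that of mES cells by an interaction contrast. In it 78 of the 82 members (95.1%) were below 0, against 62.0% of all genes. The median difference of the members was -0.62, against -0.21 over all genes, and 0 members and 0% of all genes passed. Its median SE was 0.50. Cox7a1 had the lowest adjusted p of the members, 0.76, with a difference of -1.45 ± 0.59 (SE, limma). At an unadjusted p of 0.05, 0 members fell under the threshold, against 519 higher and 593 lower of all genes, and with an intensity trend in the variance 2 genes passed, 0 of them members.

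Across all 3 lines, with the line as a term, the treatment coefficient had a median of -0.21 over the members and -0.12 over all genes, and again 0% of genes passed in limma. At an unadjusted p of 0.05 the counts were 0 members, and 556 higher and 840 lower over all genes. Cox7b2 (-0.84 ± 0.45 SE) and Cox7a1 (-0.76 ± 0.40) lay at the lower end and Cox8b (0.34 ± 0.27) at the upper end. The 4 arrays of slide 1 alone gave 0 calls over all genes, so they say nothing of the members.

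Between the EpiSC lines, E5.5 minus E3.5, the median of the members was 0.20 and that of all genes 0.12, with 0% of genes past the limma threshold. At an unadjusted p of 0.05, 1 member (Cox6b2, lower) fell under it, against 860 higher and 410 lower of all genes. All 17 ATP synthase genes had a value above 0, from 0.01 for Atp5e to 0.41 for Atp5g2, against 9773 of the 16151 genes. Ndufa5, an accessory subunit of complex I, had the highest of the 82 at 0.55 ± 0.32 (SE, limma adjusted p = 0.74). The lines lay on different slides. They also differed in sex-linked genes: over all genes Xist had the highest value (9.26) and Ddx3y the lowest (-7.00). The part of this in the values of the members was not tested.

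Other mitochondrial gene lists were read beside the chain. With SB431542 in EpiSCs, the median fitted value was -0.38 over 38 assembly factors, -0.52 over 77 mitochondrial ribosome genes, -0.33 over 14 tricarboxylic acid cycle genes, -0.62 over 9 genes of pyruvate dehydrogenase and its kinases, -0.33 over 8 uncoupling and exchange genes and -0.48 over 18 regulators of mitochondrial biogenesis. None of these genes was called in either direction. Under quantile normalization the assembly factors and ribosome genes had medians of -0.35 and -0.33, the 82 chain genes -0.10 and all genes -0.11. Under the same scaling the tricarboxylic acid cycle (-0.09) and uncoupling and exchange genes (-0.08) had medians near that of all genes, as the chain did. Regulators (-0.40), pyruvate dehydrogenase and its kinases (-0.42) and the chain genes outside the naming rule (-0.32) had lower ones.

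Single genes of these lists lay apart without passing the test. Pdk1, the kinase that switches off pyruvate dehydrogenase, was at -0.33 and 0.02 in treated and 1.13 and 1.78 in untreated EpiSCs, against 2.83 and 3.07 in treated and untreated mES cells (fitted -1.61 ± 0.35 SE for SB431542 in EpiSCs, limma adjusted p = 0.11). Ppargc1b, a coactivator of mitochondrial genes, was at -1.65 and -1.17 in treated and -0.28 and -0.10 in untreated EpiSCs, against 0.63 and 0.74 in treated and untreated mES cells (-1.22 ± 0.30, adjusted p = 0.14). Its relative Ppargc1a was at -1.67 and -3.94 in treated and -3.49 and -4.72 in untreated EpiSCs, against -5.93 and -5.90 in treated and untreated mES cells. Its treated and untreated EpiSC arrays overlapped (1.30 ± 0.88, adjusted p = 0.45). Citrate synthase, Cs, was at 5.87 and 5.86 in treated and 5.35 and 5.42 in untreated EpiSCs (0.47 ± 0.25, adjusted p = 0.36), above the untreated level while most chain genes lay below it. Between untreated EpiSCs and mES cells, Cyct was the 1 gene called in these lists, and the medians ran from -0.13 for uncoupling and exchange to -0.48 for pyruvate dehydrogenase and its kinases.

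**Figure D4:**
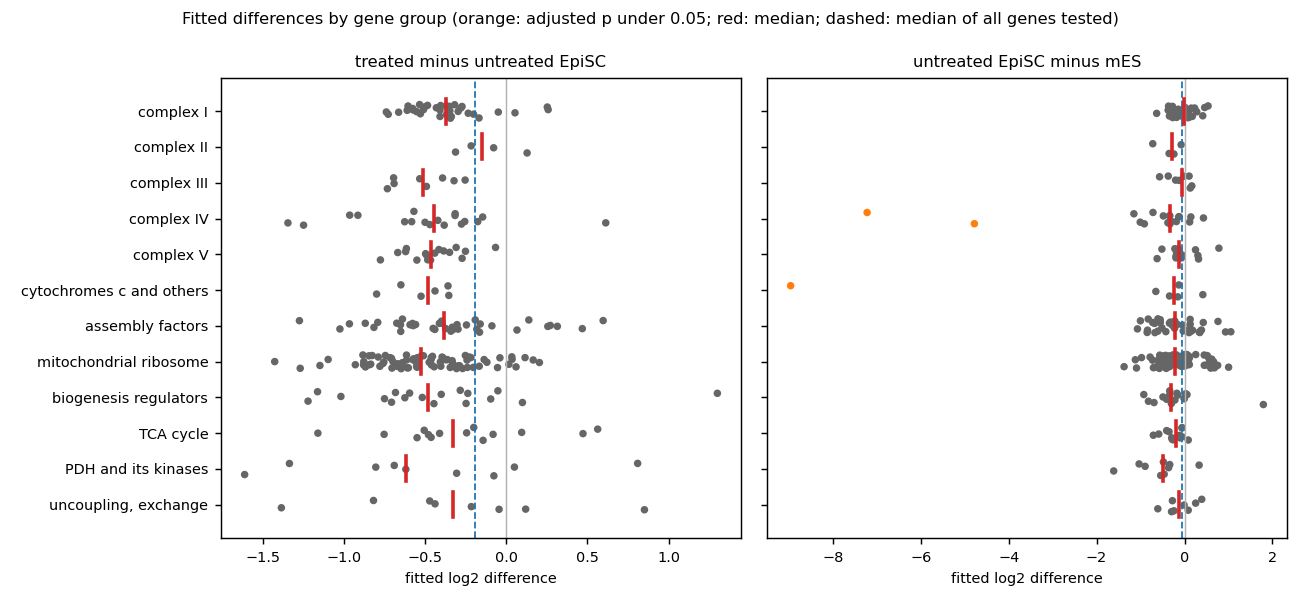
Fitted log2 differences (horizontal axes) for SB431542 in EpiSCs (left) and untreated EpiSC minus mES (right), 1 point for each gene of the 5 complexes and 7 other mitochondrial lists, with group medians in red and the median of all genes dashed. Points past the limma threshold are orange: Cox8c, Cox7b2 and Cyct, all in the right panel and all lower in EpiSCs.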

How the data were processed

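Cy3-labelled cRNA from each of 6 samples was measured on a one-colour Agilent array, per the labels. The deposited scanner files hold processed intensity on a linear scale, background-subtracted. Per the file headers the scanner software was Feature Extraction 10.7.1.1, while the submitters' processing notes give version 9.1. The deposited value table held the same intensity at 45018 of 45018 spots on each array. No gene names were used from the files: 24375 of 41174 probes were named by accession through the RefSeq table (GRCm38.p6), and the naming rule for members was applied to those symbols. The headers name build mm8, so no probe coordinates are given.

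Control and outlier spots were left out, repeat spots averaged, and log2 signal minus the array's 75th percentile computed, with the probe of highest mean signal for each gene. Genes well above background on at least 1 array (16151) were tested. limma 3.58.1 under R 4.3.3 gave the tests (linear models with eBayes and Benjamini-Hochberg adjustment at 0.05), checked on simulated data: 4 arms (EpiSC and mES, treated and untreated) with 2 residual degrees of freedom, where single mES arrays were taken to vary as EpiSC lines do, or line plus treatment. The line pairs treated with untreated arrays because both come from one cell line (same-line deviations correlated at 0.27), so it was also fitted as a block. Pairs of arrays were described by genes 2-fold apart whose higher array was well above background. Named genes were those past the threshold, the 2 highest and 2 lowest in each complex and comparison, members of the paralogue sets, members above background on some arrays only and those 2-fold apart in both EpiSC pairs (0 genes). Not all are printed, and the members Cox6c, Cox7c, Atp5b and Ndufs5 are printed outside this rule. Genes of the other mitochondrial lists and single germ line genes were named after their values were seen. "At least" folds set dim arrays at their lowest signal well above background. The members and lists were chosen with earlier results of these data known. The spot mean planned for normexp (offset 50) was not used here, and the spot median took its place. Arrays give no counts, so their number limits the precision.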

Additional observations from a re-analysis of the deposited data

Results flagged for a closer look

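The median log2 ratio of the 82 respiratory chain genes after SB431542 had opposite signs in the cell lines: -0.63 in E3.5 EpiSCs, -0.23 in E5.5 EpiSCs and 0.19 in mES cells. Over all genes tested the medians were -0.31, -0.06 and 0.02 in the same order. After quantile normalization they were -0.16, -0.06 and 0.10 for the 82, against -0.17, -0.03 and 0.00 for all genes. Each line has 1 treated and 1 untreated array, and the difference between the lines in the median of the 82 was not tested. The interaction fit for single genes called 0 members. Slide 1 held the E5.5 and mES pairs, and the 2 E3.5 arrays lay on slides 2 and 3. The part of the slide in the E3.5 value was not tested.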

How the results depend on the processing

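No array has a repeat, so precision rests on 2 residual degrees of freedom, and members below background have bounds only.

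The 2 calls in EpiSCs against mES cells (Cox8c and Cox7b2) became 0 with normexp background correction, where the fitted differences were -2.61 and -2.08, and 0 where genes had to be above background on all 6 arrays, since neither was then tested. Across the 3 lines, 903 genes and 0 members were called without either mES array, against 0 genes with all arrays. For EpiSCs against mES cells, both calls were lost without the treated E3.5 or treated E5.5 EpiSC array, which left 1 array in that arm. Both stood in the other fits of that comparison without 1 array. In the other 4 comparisons 0 members were called under every alternative run. With the line as a replicate block, SB431542 in EpiSCs called 903 genes in place of 338 and 0 members, and no replicate block across the 3 lines left 0 members. For SB431542 in EpiSCs, calls over all genes were lost without either treated EpiSC array and were fewer without either untreated one. The count over all genes there was 540 with the filter on all arrays and 965 with a variance trend. For EpiSCs against mES cells it was 242, and 376 with unnamed probes and 679 with a variance trend, both chosen after seeing the data.

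Quantile normalization moved the median of the members to -0.16 in the E3.5 EpiSC pair, -0.086 for E3.5 EpiSC over mES and -0.056 for E5.5 EpiSC over mES. The E5.5 EpiSC over mES median was -0.169 with normexp and -0.046 with median centring. For SB431542 in EpiSCs, quantile normalization turned the sign of fitted values that had not passed the test for Atp5g3 (0.10), Atp5h (0.37), Atp5j (0.10), Cox6a1 (0.31), Cox7a2l (0.0024), Cox8c (0.0403), Sdha (0.028), Uqcrfs1 (0.031) and Uqcrh (0.15). Cox8c was not well above background on any EpiSC array, so its sign has no direction. Normexp did so for Cox7a2l (0.024) and Cox8b (-0.43). Leaving out 1 array gave -0.23 to 0.10 for Atp5h, -0.17 to 0.014 for Sdha and -0.026 to 0.28 for Sdhc. For EpiSCs against mES cells, normexp turned Cox4i2 (0.12), Cox6a2 (0.016), Cox8b (0.19) and Uqcrb (-0.031), and quantile normalization Sdhb (0.011). Leaving out 1 array gave -0.0010 to 0.15 for Ndufa4 and -0.16 to 0.00035 for Sdhb. The cause of these changes was not tested.

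The slide could not be fitted as a random block with the tools used, and within slide 1 the treatment effect across lines called 0 of all genes, so its 0 members say nothing. The deposited value table gave the same values.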
